A study of Mus musculus with 12 samples.

Results

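Elastic fibres give connective tissue its recoil, and 10 genes of these fibres were followed here: elastin (Eln), the elastin-associated glycoprotein Emilin1, the fibulins Fbln1, Fbln2, Fbln5 and Efemp1, the microfibril-associated proteins Mfap2, Mfap4 and Mfap5, and tenascin X (Tnxb). They were chosen by name. Each of the 10 had 1 probe set annotated to it alone, among 22180 genes with such a probe set, and for all 10 the mean in each group lay above 4.10, the 40th percentile of all probe sets, which was taken as near background. The values came from 12 Affymetrix arrays of C57BL/6 mouse fat, with 3 biological replicates in each of 4 groups: adipose progenitors (AP) from the perigonadal visceral depot (VAT), AP from the inguinal subcutaneous depot (SAT), whole adipose tissue (AT) from VAT, and AT from SAT. The AP were freshly prepared by digesting the tissue with enzymes and then removing blood cells that carry lineage markers and CD31-bearing endothelial cells with antibody-coated beads, while the AT was not fractionated. No treatment or mutation is labelled. The labels give neither the sex and age of the mice nor which animals, several of which were used, made up a replicate. The p-values therefore cover the variation among these 12 samples, which need not equal that among single mice.

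An elastic fibre has a core of cross-linked elastin laid down on a scaffold of fibrillin microfibrils. Fibulins and EMILIN proteins bridge elastin, the microfibrils and the cell surface, the small MFAP proteins decorate the microfibrils, and lysyl oxidases cross-link the elastin. In fat, fibroblast-like stromal cells that include the adipocyte progenitors make much of this matrix, and adipocytes lie within it.

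Averaged over both depots, all 4 adipocyte markers (Adipoq, Plin1, Cidec, Lep) were lower in AP than in AT, with a median log2 difference of -5.57, as were all 4 endothelial markers (median -2.66) and all 4 leukocyte markers (median -3.29). All 5 measured progenitor markers were higher (Pdgfra, Pdgfrb, Cd34, Pi16, Dpp4; median 2.31). In VAT alone limma called 4 of these 5 higher, against 15.8% of all genes, all but Dpp4 (0.33, with overlapping arrays). All 6 mural and smooth muscle markers (such as Acta2 and Myh11), of cells that the beads did not target, were higher in AP as well, with a median of 2.57. In SAT alone 5 of these 6 mural markers were called higher, against 16.1% of all genes, all but Rgs5 (0.46). The log2 of their summed intensity was 12.95 to 13.12 in AP from VAT, 12.65 to 12.71 in AP from SAT, 10.57 to 11.08 in AT from VAT and 10.64 to 10.82 in AT from SAT. The 4 dissociation genes (Fos, Fosb, Egr1, Hspa1b) were higher in AP by a median of 5.70. Over both depots 22% of all genes were called higher in AP and 20.5% lower. None of these mural or dissociation markers lay near background in a group, and their part in the results below was not tested. All AP were made by dissociation and AT was not, and this handling cannot be told apart from the cells themselves.

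All 10 elastic fibre genes were higher in AP than in AT, in each depot. By limma with Benjamini-Hochberg adjustment over all genes, 10 of 10 were called higher in VAT and 10 of 10 in SAT, against 15.8% and 16.1% of all genes called higher in those depots. The median log2 difference of the 10 genes was 1.69 in VAT and 1.62 in SAT, where the median of all genes was 0.03 in each. Their adjusted p-values ran from 2.29e-08 to 0.0099 in VAT and from 8.51e-09 to 0.00602 in SAT. The AP and AT arrays did not overlap for 10 of 10 genes in VAT and 10 of 10 in SAT, which held in the same direction for 20.5% and 23.5% of all genes. A called difference of at least 1 on the log2 scale was met by 8 genes in VAT (3.85% of all genes) and 9 in SAT (4.64%). Averaged over both depots the differences ranged from 0.89 for Mfap4 to 2.44 for Fbln1 (22% of all genes were called higher in that average, and 3.97% by at least 1 on the log2 scale, as were 9 of the 10). With the depots pooled, all AP arrays lay above all AT arrays for 9 of 10 genes, all but Mfap4, against 10.5% of all genes. Whether more cells of a type or more RNA per cell lay behind a difference cannot be told apart in such bulk samples.

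Elastin itself, the polymer of the fibre core, had log2 intensities of 7.93, 8.21 and 8.57 in AP from VAT, against 6.63, 7.45 and 7.25 in AT from VAT. In SAT they were 7.61, 7.5 and 7.98 in AP, against 6.16, 6.13 and 6.72 in AT. Every AP array lay above every AT array of either depot. Eln was 2.18-fold higher in AP in VAT (log2 difference 1.13, SE 0.22, limma adjusted p = 0.000871) and 2.57-fold higher in SAT (1.36, SE 0.22, adjusted p = 0.000146). It had the widest spread of the fit among the 10 genes.

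Emilin1 encodes a glycoprotein found between elastin and the microfibrils. Its intensities were 7.52, 7.35 and 7.49 in AP from VAT, against 6.36, 6.46 and 6.41 in AT from VAT, and 7.25, 7.45 and 7.67 in AP from SAT, against 5.90, 5.63 and 6.25 in AT from SAT. The AP arrays of both depots overlapped, and the AT arrays did not. Its AP minus AT difference was 1.04 in VAT and 1.53 in SAT (SE 0.14 each).

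Fbln5 encodes fibulin 5, which binds tropoelastin and integrins and is needed for elastic fibre assembly in mice. It stood at 9.84, 9.82 and 9.99 in AP from VAT, against 8.01, 8.45 and 8.41 in AT from VAT. In SAT it stood at 8.75, 8.65 and 8.60 in AP, against 7.40, 7.47 and 7.76 in AT. None of the 4 groups overlapped with another. The AP minus AT difference was 1.59 in VAT and 1.12 in SAT (SE 0.13 each, adjusted p = 1.54e-07 and 5.63e-06).

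Fbln1 stands for the largest AP minus AT difference over both depots, Fbln5 for a visceral excess in both preparations and Mfap2 for a subcutaneous one. The excess of Mfap2 was called in AT only. The windows before the starts of these 3 genes are shown because the genes stand for patterns described here. Each is the 250 bases before a RefSeq start (GRCm38.p6), 5′ to 3′, with matches to the 6 motifs searched in capitals.
Fbln1, chr15:85205699-85205948, plus strand: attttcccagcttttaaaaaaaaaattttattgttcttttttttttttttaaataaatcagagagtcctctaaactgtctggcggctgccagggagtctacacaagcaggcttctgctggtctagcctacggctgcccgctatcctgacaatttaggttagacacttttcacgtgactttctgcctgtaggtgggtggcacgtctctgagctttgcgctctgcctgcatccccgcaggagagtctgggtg
Fbln5, chr12:101819120-101819369, minus strand: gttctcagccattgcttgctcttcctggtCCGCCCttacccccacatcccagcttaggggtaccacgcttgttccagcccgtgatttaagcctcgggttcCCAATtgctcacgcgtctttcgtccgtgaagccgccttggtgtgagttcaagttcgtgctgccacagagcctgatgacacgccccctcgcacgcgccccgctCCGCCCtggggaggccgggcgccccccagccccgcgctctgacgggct
Mfap2, chr4:141010174-141010423, plus strand: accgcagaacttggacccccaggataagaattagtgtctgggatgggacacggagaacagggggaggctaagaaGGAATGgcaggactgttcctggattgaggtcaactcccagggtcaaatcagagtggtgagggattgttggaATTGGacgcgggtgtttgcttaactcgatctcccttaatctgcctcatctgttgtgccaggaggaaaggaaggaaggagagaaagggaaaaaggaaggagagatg

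On both strands the letters searched were GGGCGG for the GC box, TGANTCA for AP-1, CCAAT for the CCAAT box, TATAAA for the TATA box and CATTCC for TEAD factors, beside the CArG box. No match overlapped another in these 3 windows. The Fbln5 window shown held 2 GC boxes, whose first printed bases lay 221 and 48 bases before the start, and a CCAAT box at 150. The Mfap2 window shown held a TEAD match at 176 and a CCAAT box at 105, and the Fbln1 window shown held none of the 6. Each of these genes has a further RefSeq start, whose window lies partly or wholly within the gene and is not printed: that of Fbln1 held a GC box at 11, that of Mfap2 GC boxes at 51 and 7, and that of Fbln5 none of the 6. RefSeq windows of this kind were found for 7 of the 10 genes, 10 windows in all. GC boxes lay in 5 of the 10, against 32.7% of the 32851 windows of all genes, and the AP-1 letters in 2 (Efemp1 and Tnxb), against 6.75%. CCAAT lay in 2 (33.8% of all windows), CATTCC in 1 (12.6%), and TATAAA (12.4%) and the CArG box (1.47%) in 0. These matches describe the letters only.

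The microfibril-associated proteins Mfap2 and Mfap5 are small glycoproteins that bind fibrillin. Mfap2 stood at 7.87, 7.73 and 8.0 in AP from VAT, against 5.93, 6.09 and 5.82 in AT from VAT, and at 8.34, 8.24 and 8.40 in AP from SAT, against 6.32, 6.85 and 6.65 in AT from SAT. It was 3.78-fold higher in AP in VAT (log2 difference 1.92, SE 0.13) and 3.29-fold higher in SAT (1.72, SE 0.13). Again no groups overlapped, but here SAT was the higher depot within each preparation.

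Mfap5 was bright and tightly grouped in AP, at 10.64, 10.64 and 10.57 in VAT and 10.56, 10.55 and 10.37 in SAT. In AT it was more scattered, at 8.43, 9.01 and 9.05 in VAT and 8.62, 8.36 and 9.37 in SAT. Its AP minus AT difference was 1.79 in VAT and 1.71 in SAT (SE 0.21 each).

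Mfap4, a fibrinogen-related protein of elastic fibres, had the smallest difference over both depots. It stood at 6.81, 6.74 and 6.63 in AP from VAT, against 5.29, 6.03 and 5.91 in AT from VAT, and at 5.30, 5.97 and 5.80 in AP from SAT, against 4.98, 4.57 and 5.14 in AT from SAT. The AP arrays from SAT overlapped with the AT arrays from VAT, which was the case for none of the other 9 genes. The AP minus AT difference was 0.98 in VAT (SE 0.20, adjusted p = 0.00132) and 0.79 in SAT (SE 0.20, adjusted p = 0.00602).

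Fibulins 1 and 2, found in elastic fibres and basement membranes, differed more between AP and AT. Fbln1 stood at 10.08, 10 and 10.34 in AP from VAT, against 8.02, 8.05 and 8.14 in AT from VAT. In SAT it stood at 9.52, 9.65 and 9.80 in AP, against 6.65, 6.52 and 7.38 in AT. Fbln1 was 4.20-fold higher in AP in VAT (2.07, SE 0.18, adjusted p = 2.43e-07) and 7.0-fold higher in SAT (2.81, SE 0.18, adjusted p = 8.51e-09), larger in SAT than 99.8% of all genes' differences.

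Fbln2 stood at 10.49, 10.46 and 10.66 in AP from VAT, against 8.15, 8.42 and 8.65 in AT from VAT, and at 9.51, 9.57 and 9.52 in AP from SAT, against 7.0, 7.18 and 7.61 in AT from SAT. It was 4.38-fold higher in AP in VAT (2.13, SE 0.15) and 4.82-fold in SAT (2.27, SE 0.15). As for Fbln1, no pair of the 4 groups overlapped.

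Efemp1 encodes fibulin 3, whose loss in mice thins the elastic fibres of fascia. It stood at 11.51, 11.53 and 11.59 in AP from VAT, against 10.66, 10.77 and 11.02 in AT from VAT. In SAT it stood at 11.44, 11.29 and 11.06 in AP, against 9.68, 9.55 and 10.53 in AT. The groups did not overlap, and the AP minus AT difference was 0.73 in VAT (SE 0.20, adjusted p = 0.0099) and 1.34 in SAT (SE 0.20, adjusted p = 5.95e-05).

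Tenascin X binds collagen fibrils, and its loss in humans causes a form of Ehlers-Danlos syndrome. Tnxb stood at 10.83, 10.72 and 10.85 in AP from VAT, against 8.37, 8.59 and 8.75 in AT from VAT, and at 10.96, 11.01 and 10.94 in AP from SAT, against 8.43, 8.44 and 9.41 in AT from SAT. It was 4.69-fold higher in AP in VAT (2.23, SE 0.20) and 4.63-fold in SAT (2.21, SE 0.20). The AP arrays had an SD of 0.07 in VAT and 0.04 in SAT (n = 3 each), while AT from SAT had 0.56.

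**Figure D1:**
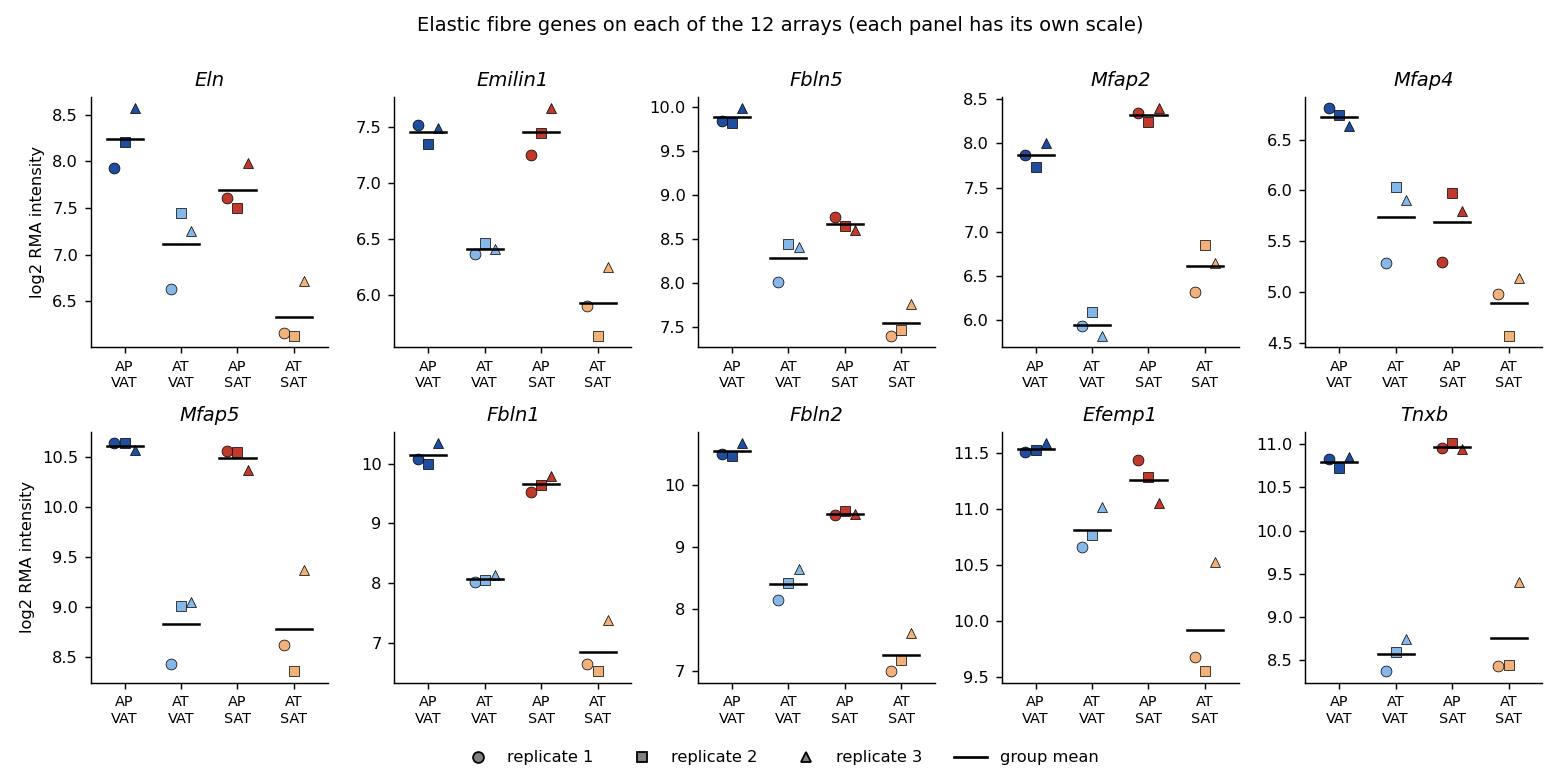
Log2 RMA intensity of each of the 10 genes (panels, each with its own scale) on the 12 arrays, grouped as AP and AT from VAT and AP and AT from SAT; symbols mark replicates 1 to 3 and bars the group means. In each panel both AP groups lie above the AT group of the same depot, and replicate 3 is the highest AT array from SAT for 9 of 10 genes.

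**Figure D2:**
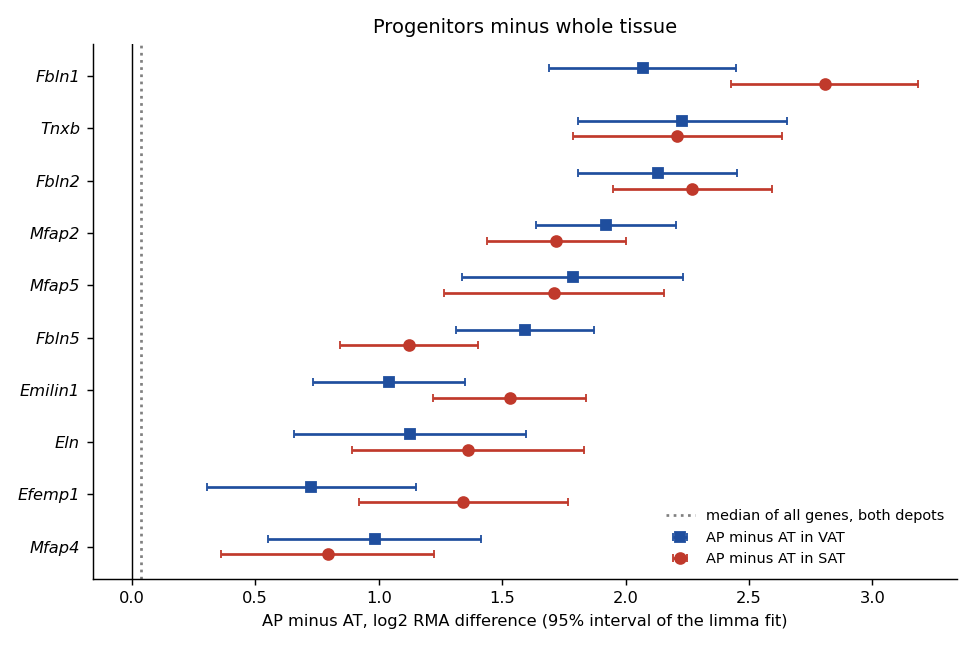
AP minus AT log2 RMA differences in VAT (squares) and SAT (circles) with 95% intervals of the limma fit, ordered by the mean of both depots. All 20 intervals lie above 0 and above the median of all genes (dotted line). The differences run from 0.73 for Efemp1 in VAT to 2.81 for Fbln1 in SAT.

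The array of AT from SAT replicate 3 stood apart from the other AT arrays from SAT. It was the highest of its group for 9 of the 10 genes, all but Mfap2, and the mean over the 10 was 7.68 there, against 7.11 and 7.07 on replicates 1 and 2. The mean of the 5 progenitor markers was higher on it too, at 9.40, against 8.48 and 8.14. In AT from VAT, replicate 1 was the lowest for 9 of the 10 genes, with a mean of 7.58 over them, against 7.93 and 7.94. The progenitor markers did not follow there, with means of 8.03 on replicate 1 and 8.35 and 8.0 on the others. The part of stromal content in these shifts was not tested. Without replicate 3 of AT from SAT, all 10 genes were still called higher in AP in each depot.

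**Figure D3:**
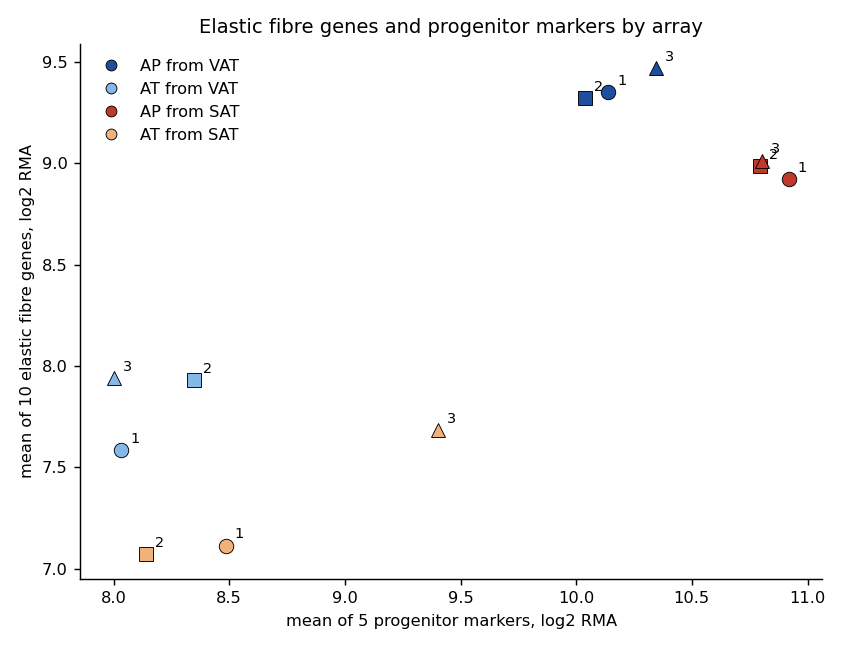
Mean log2 RMA intensity of the 10 elastic fibre genes (vertical axis) against the mean of 5 progenitor markers (horizontal axis) on each array, coloured by group and numbered by replicate. AP arrays lie at 8.92 to 9.47 and AT arrays at 7.07 to 7.94 on the vertical axis; AT from SAT replicate 3 lies to the right of the other AT arrays, at 9.40 on the horizontal axis.

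Between the depots the genes divided. In AP, Fbln5, Mfap4 and Fbln2 were higher in VAT than in SAT, and no gene was called lower. In AT, Fbln1, Fbln2, Efemp1, Mfap4 and Fbln5 were higher in VAT and Mfap2 was lower. By limma with adjustment over all genes, 3 of 10 were called higher in VAT in AP, against 3.03% of all genes called higher and 2.6% called lower (5.64% in all). In AT 5 of 10 were called higher, against 2.8% of all genes, and 1 lower, against 1.75% (4.55% in all). A called difference of at least 1 on the log2 scale was found for 3 genes in AP (1.67% of all genes) and 2 in AT, Fbln1 and Fbln2 (1.13%). The arrays of the depots did not overlap for 6 genes higher and 2 lower in AP, against 9.87% and 10.5% of all genes, and for 6 higher and 1 lower in AT, against 10.9% and 7.26%. The median VAT minus SAT difference of the 10 genes was 0.38 in AP and 0.76 in AT, where that of all genes was 0 in AP and 0.003 in AT.

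Fbln5 was 2.32-fold higher in VAT in AP (log2 difference 1.22, SE 0.13, adjusted p = 2.27e-05), larger than 99.4% of all genes' differences, and 1.68-fold higher in AT (0.75, SE 0.13, adjusted p = 0.00292). Fbln2 was 2.00-fold higher in AP (1.00, SE 0.15, adjusted p = 0.000525) and 2.21-fold in AT (1.14, SE 0.15, adjusted p = 0.000266). In AP the depots did not overlap for either gene, with the lowest VAT array above the highest SAT array. Fbln1 was called in AT, where it was 2.33-fold higher in VAT (1.22, SE 0.18, adjusted p = 0.000645). In AP its difference of 0.48 (95% interval 0.10 to 0.86) did not pass (adjusted p = 0.162), although its 3 VAT arrays lay above its 3 SAT arrays. Its adjusted p was 0.0201 without AT from SAT replicate 3, which shares the estimate of spread (6.19% of all genes then passed), and 0.037 when only the AP arrays were fitted. In the other 17 of 19 alternative settings this AP difference did not pass (adjusted p up to 0.427).

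Efemp1 followed Fbln1: it was higher in VAT in AT (0.90, SE 0.20, adjusted p = 0.0151) and had a difference of 0.28 in AP (95% interval -0.14 to 0.70, adjusted p = 0.603). Mfap4 was 2.05-fold higher in VAT in AP (1.04, SE 0.20, adjusted p = 0.00448) and 1.80-fold in AT (0.85, SE 0.20, adjusted p = 0.0242). The calls of Mfap4 and Efemp1 in AT lay near the threshold. Mfap4 had an adjusted p of 0.0569 to 0.0995 when AT from SAT lost replicate 1 or 2, or when AT from VAT lost replicate 2 or 3, with differences of 0.68 to 0.89. Efemp1 had 0.0658 to 0.08 when AT from SAT lost replicate 1 or 2, or when AT from VAT lost replicate 3, with differences of 0.71 to 0.80. With only the AT arrays fitted, Mfap4 was at 0.0722 and Efemp1 at 0.0872.

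Mfap2 ran the other way. It was lower in VAT in AT, by a log2 difference of -0.66 (SE 0.13, adjusted p = 0.00788), although the adjusted p was 0.0507 with only the AT arrays fitted and 0.215 after scaling to housekeeping genes. In AP its difference was -0.46 (95% interval -0.74 to -0.18, adjusted p = 0.0578), with every VAT array below every SAT array. The adjusted p of that difference was 0.0268 to 0.0495 without replicate 1 or 2 of AT from SAT, with a trended and robust prior, after a filter on low values or with only the AP arrays. In the remaining 14 of 19 alternative settings the AP difference did not pass, with an adjusted p of up to 0.71. Over all 19 it ran from -0.53 to -0.31.

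For Eln, Emilin1, Mfap5 and Tnxb no depot difference passed. Eln had 0.54 in AP (95% interval 0.07 to 1.01, adjusted p = 0.227) and 0.77 in AT (0.30 to 1.24, adjusted p = 0.0627). The AT value of Eln passed with the replicate number as a block (adjusted p = 0.0121), after scaling to housekeeping genes (0.89, adjusted p = 0.00183) and after the filter on low values (adjusted p = 0.0456). It also passed without replicate 3 of AT from SAT (0.97, adjusted p = 0.0228, with 4.63% of all genes passing) and without replicate 1 of AT from VAT (1.01, adjusted p = 0.0156). The AP value of Eln passed after scaling to housekeeping genes (0.69, adjusted p = 0.034). That scaling moved the median VAT minus SAT difference of all genes to 0.15 in AP and 0.12 in AT. Of 19 alternative settings, the AP value of Eln did not pass in 18 (adjusted p up to 0.514). The AT value did not pass in 14 of 19 (up to 0.212). Emilin1 had -0.003 in AP (95% interval -0.31 to 0.30) and 0.48 in AT (0.18 to 0.79, adjusted p = 0.0779). The AT value of Emilin1 passed without replicate 3 of AT from SAT (0.65, adjusted p = 0.0117) and not in the other 18 settings (up to 0.266). Mfap5 had 0.12 in AP (-0.32 to 0.57) and 0.05 in AT (-0.40 to 0.49), and Tnxb had -0.17 (-0.59 to 0.25) and -0.19 (-0.61 to 0.23). A value that missed the threshold does not show that the depots were alike.

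The mesothelial markers, of the lining of the body cavity, moved with the depot. All 6 (Upk3b, Upk1b, Msln, Lrrn4, Gpm6a, Krt19) were higher in VAT in AP (median 3.70, against 3.03% of all genes called higher) and in AT (median 3.40, against 2.8%). The log2 of their summed intensity was 11.94 to 12.46 in AP from VAT against 7.74 to 8.30 in AP from SAT, and 11.44 to 11.76 in AT from VAT against 7.85 to 8.17 in AT from SAT, and none of the 6 had a group mean near background. Of the 6 mural markers 3 were called higher in VAT in AP (median 0.40) and 1 in AT (median -0.11), against the same shares. Of the 5 progenitor markers 2 were called lower in VAT in AP and 1 in AT, against 2.6% and 1.75% of all genes. Pdgfra had a difference of -0.03 and Pdgfrb of 0.01 in AP. The part of these cells in the depot differences of the elastic fibre genes was not tested.

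**Figure D4:**
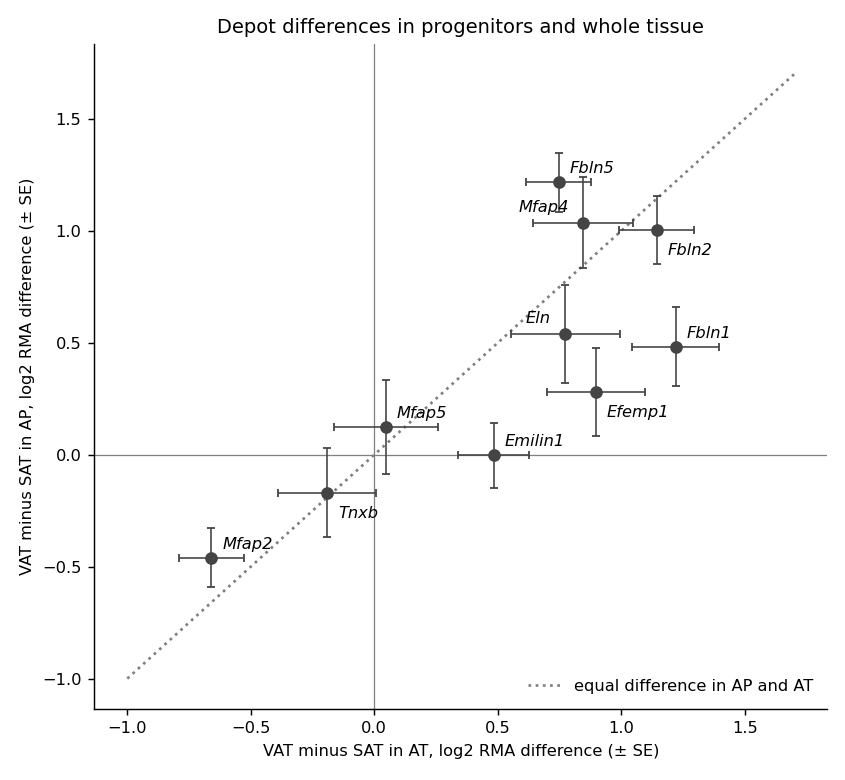
VAT minus SAT log2 RMA difference of each of the 10 genes in AP (vertical axis) and in AT (horizontal axis), with SE bars; the dotted line marks equal differences. Fbln5, Mfap4 and Fbln2 lie high on both axes and Mfap2 low on both, while Fbln1, Efemp1 and Emilin1 lie farthest below the line.

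The depot differences in AP and AT come from separate arrays. They had the same sign for 9 of the 10 genes, all but Emilin1, against 52.9% of all genes. The 3 genes Fbln5, Mfap4 and Fbln2 were called in the same direction in both, as were 1.62% of all genes. Across the 10 genes the Pearson correlation of the differences in AP and AT was 0.78, beside 0.43 across all 22180 genes, which are not independent replicates. The AP minus AT differences of VAT and SAT also come from separate arrays, and their correlation was 0.77 across the 10 genes and 0.89 across all genes.

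The depot difference was compared between the preparations by the interaction, the VAT minus SAT difference in AP less that in AT. In limma 0 of 10 genes passed, against 2.15% of all genes. The largest in size were Fbln1 (-0.74, 95% interval -1.27 to -0.20, adjusted p = 0.178) and Efemp1 (-0.62, -1.21 to -0.02, adjusted p = 0.352). Next came Emilin1 (-0.49, -0.92 to -0.05, adjusted p = 0.301) and Fbln5 (0.47, 0.07 to 0.87, adjusted p = 0.263). Without replicate 3 of AT from SAT, Fbln1 (-1.0, adjusted p = 0.00578) and Efemp1 (-0.92, adjusted p = 0.0132) passed, as did 2.82% of all genes. The depot difference of these 2 genes was then smaller in AP than in AT.

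The groups took the same order of mean level for most of the genes. In 6 of 10 (Eln, Fbln5, Mfap5, Fbln1, Fbln2, Efemp1) it ran from AP of VAT through AP of SAT and AT of VAT down to AT of SAT, an order that 9.82% of all genes had. Mfap2 and Tnxb had SAT above VAT within each preparation, Emilin1 had AP of SAT at the top by 0.003, and Mfap4 alone had AT of VAT above AP of SAT, by 0.05 with overlapping arrays. Neighbours in the order did not overlap at any step for 5 genes (Fbln5, Mfap2, Fbln1, Fbln2, Efemp1), against 2.24% of all genes. The top neighbours overlapped for Eln and Emilin1, and the bottom ones for Eln, Mfap5 and Tnxb.

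After the mean of each preparation was subtracted, 6 genes (Eln, Fbln5, Mfap4, Fbln1, Fbln2, Efemp1, grouped after their values were seen) varied together over the 12 arrays, with correlations of 0.69 to 0.95 over their 15 pairs. Mfap2 had correlations of -0.82 to -0.61 with these 6 and was negatively correlated with 8 of the 9 other genes. Mfap5 was closest to Tnxb (0.78). The points share arrays, depots and normalization, so these values are a description.

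Patterns were compared with 14106 genes above near background. Symbols that end in Rik, or start with Gm or Or and digits, Mir, Snor, Olfr, Vmn, Igk, Igh, Tra or Trb, were left out. The closest pattern to Tnxb over the 12 arrays was that of Col6a1, a chain of collagen VI (Pearson r = 0.998). The laminin Lamc1 (0.997) and Timp3, an inhibitor of metalloproteinases (0.996), followed. The closest to Fbln1 were Nbl1, a BMP antagonist (0.995), the transcription factor Osr1 (0.992) and podoplanin, Pdpn (0.989). The closest to Mfap5 were the complement inhibitor Serping1 (0.993), Timp2 (0.991) and S100a6 (0.99). Eln was closest to Mast4 (0.974), Emilin1 to Tns2 (0.991), Fbln5 to Meis2 (0.987), Mfap2 to Lgi2 (0.984), Mfap4 to Nfib (0.962), Fbln2 to Csrp1 (0.995) and Efemp1 to the aggrecanase Adamts5 (0.984). With preparation means subtracted, Col6a1 stayed closest to Tnxb (0.958) and Tns2 to Emilin1 (0.936). Fbln1 was then closest to the Hedgehog transducer Smo (0.981), Fbln2 to the collagen receptor Ddr1 (0.988), Fbln5 to Cyp2s1 (0.99), Mfap4 to Tnfrsf11b (0.954), Mfap2 to Gpnmb (0.953), Mfap5 to Fxyd2 (0.971), Efemp1 to Actn4 (0.968) and Eln to Kcnab1 (0.947). Each is the highest of many correlations, picked as such.

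Other genes of the elastic fibre pathway were less uniform. Of 42 named by role, 38 had a probe set of their own. Averaged over both depots 25 of the 38 were higher in AP and 5 lower, with a median of 0.52, against 22% of all genes called higher and 20.5% called lower. Fbn1, Efemp2, Hmcn2 and Loxl2 were not analysed here.

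The enzymes that cross-link elastin rose together, with all 4 measured called higher in AP, against 22% of all genes. These were Loxl3 by 1.99 (SE 0.11), Loxl1, the partner of fibulin 5, by 1.84 (SE 0.12), Lox by 1.5 (SE 0.11) and Loxl4 by 1.26 (SE 0.10). Lox averaged 9.51 ± 0.23 in AP and 7.89 ± 0.19 in AT from VAT (SD, n = 3 each). Of the latent TGF-beta binding proteins, some of which store TGF-beta on microfibrils, Ltbp1 (2.07, SE 0.15) and Ltbp4 (1.84, SE 0.09) rose. Ltbp4, which also binds fibulin 5, averaged 11.11 ± 0.11 in AP and 8.97 ± 0.17 in AT from VAT. The other two, named after their values were seen, were Ltbp2 at 0.18 and Ltbp3 at -0.04, and neither passed. Ltbp2 was higher in AP in VAT (0.63, adjusted p = 0.00224) and had -0.27 in SAT (adjusted p = 0.174).

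In the families of the 10 genes, Fbln7 (0.84, SE 0.08) and the hemicentin Hmcn1 (0.47, SE 0.10) rose, as did Emilin2 (1.71, SE 0.13) and tenascin C (Tnc, 0.75, SE 0.12). Of 2 other fibulin family genes 2 rose, and of 3 other tenascins 1, against 22% of all genes. Of 4 other EMILIN and multimerin genes 1 rose and 2 fell, against 22% and 20.5%. Emilin3, Tnr and Tnn, named after their values were seen, did not pass. Hmcn1 was higher in AP in VAT (0.89), while in SAT it had 0.05 (adjusted p = 0.827) and means of 3.97 in AP and 3.92 in AT, both below near background. The multimerins Mmrn2 (-2.04, SE 0.09) and Mmrn1 (-1.43, SE 0.10), which endothelial cells make, fell. Mmrn1 had -2.29 in VAT and -0.56 in SAT (interaction -1.73, adjusted p = 0.000523). Its AP means, 4.14 in VAT and 4.16 in SAT, lay only just above near background. The sizes of these differences and of the interaction therefore mostly follow its AT means, 6.43 in VAT and 4.72 in SAT. In AT, Mmrn1 was higher in VAT than in SAT (1.71), while the 4 endothelial markers had a median VAT minus SAT difference of -0.20. Over both depots those markers had a median of -2.66, and their part in the multimerin values was not tested. Fibrillin 2 (Fbn2) was higher by 0.28 over both depots (SE 0.08, adjusted p = 0.00869). It was called in VAT (0.32) and not in SAT (0.23), and its group means were low, at 4.31 to 4.74. Of 6 ADAMTS and ADAMTS-like genes that act on microfibrils 5 rose, against 22% of all genes, led by Adamtsl4 (1.54, SE 0.12) and Adamts10 (0.82, SE 0.09). Of 7 integrin subunits 6 rose, against the same 22%, led by Itga5 (1.85, SE 0.13) and Itga8 (1.42, SE 0.08). The remaining subunit, Itgb1, had -0.0067 and did not pass.

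Elastin-degrading enzymes moved both ways. Ctsk (2.25, SE 0.11) and Mmp2 (2.20, SE 0.15) were higher in AP, and Ctss (-4.95, SE 0.16) and Mmp9 (-2.07, SE 0.17) lower. Cathepsin S and MMP9 are leukocyte enzymes in many tissues. The 4 leukocyte markers had a median of -3.29, and their part in these values was not tested. In all, 3 of 7 degrading enzymes rose and 3 fell, against 22% and 20.5% of all genes.

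**Figure D5:**
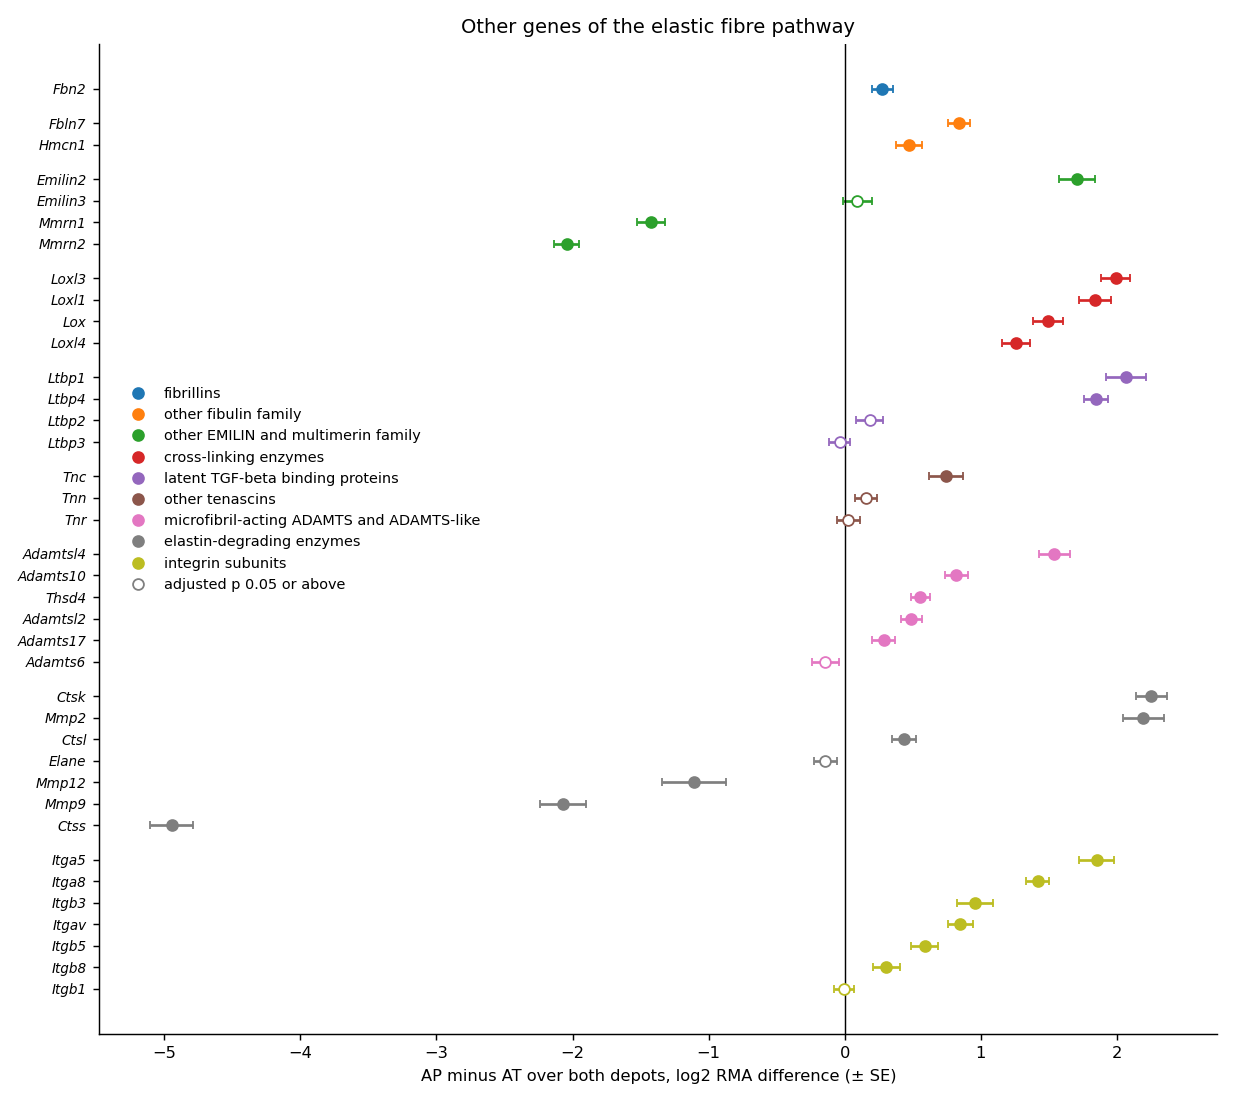
AP minus AT log2 RMA difference over both depots (horizontal axis, with SE bars) of the 38 other genes of the pathway, by role; open symbols did not pass an adjusted p of 0.05. The 4 cross-linking enzymes lie between 1.26 and 1.99, and the elastin-degrading enzymes span -4.95 to 2.25.

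Between the depots in AP, 7 of the 38 were higher in VAT and 7 lower, against 3.03% and 2.6% of all genes. Ltbp4 was 2.06 higher (SE 0.12, adjusted p = 6.10e-08) and was also higher in AT (1.47, SE 0.12). Hmcn1 (1.48, SE 0.14), Ltbp2 (1.02, SE 0.14), Adamts6 (0.81, SE 0.14), Itga8 (0.64, SE 0.12) and Thsd4 (0.49, SE 0.10) were higher too. Hmcn1 had a mean below near background in AP from SAT (3.97). Lower in VAT were Ctsk (-1.64, SE 0.16), Mmp2 (-1.05, SE 0.21), Adamtsl4 (-0.96, SE 0.16), Emilin2 (-0.94, SE 0.19), Loxl4 (-0.82, SE 0.15), Fbln7 (-0.71, SE 0.11) and Itgb3 (-0.71, SE 0.19). Lox had a difference of 0.01 (adjusted p = 0.987) and Loxl1 of -0.37 (adjusted p = 0.298).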

How the data were processed

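RNA of 12 samples was hybridised to Affymetrix mouse arrays. The authors deposited log2 intensities per probe set, summarised by RMA (robust multi-array averaging); the submitters' processing notes name Affymetrix Expression Console 1.3.0.187. That the log2 base applies was inferred from the method and the range, 1.69 to 13.48. Array scans were not used here. Array medians were 4.49 to 4.67, and replicate arrays correlated at 0.9869 to 0.9936 across genes. The number of arrays limits the precision.

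Of 41345 probe sets, 23521 had 1 gene in the platform annotation, 1814 several and 16010 none; those with 1 gene were used as deposited, the brightest per gene (22180 genes). A mean per group with a shared spread was estimated by limma 3.58.1 (R 4.3.3), and differences were tested 2-sided and adjusted over all genes by Benjamini-Hochberg; an adjusted p under 0.05 was called. Fold changes are 2 to the power of the log2 difference. The code was tested on simulated data. Named genes are all members, up to 2 called genes per direction and role in the AP minus AT average and in VAT minus SAT in AP, Fbn1, Efemp2, Lox and Loxl1, and the 3 genes most correlated with each member. Members, lists, markers and tests were chosen with earlier results of these data known. Alternatives comprised a replicate block, a trended robust prior, quantile normalization, scaling to 10 housekeeping genes, the mean of a gene's probe sets, a filter at the 40th percentile, the compared groups alone, a demand of a log2 difference of 1, and leaving out each array. Windows before gene starts are RefSeq's (GRCm38.p6), read with Python 3.11.15.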

Additional observations from a re-analysis of the deposited data

How the results depend on the processing

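All 10 genes kept their call as higher in AP, in each depot and over both, under every alternative except the demand of a log2 difference of 1, which 8 met in VAT, 9 in SAT and 9 over both. Scaling to housekeeping genes moved the median of all genes in AP minus AT over both depots to 0.79, so that 19246 genes were called higher and 1011 lower, against 4890 and 4540 as reported.

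The depot counts moved more. With only the compared arrays 5 genes were called in AP (6.46% of all genes) and 3 in AT (2.71%). The demand of a log2 difference of 1 left 2 in AT. Leaving out an array gave 3 to 4 genes in AP, against 3.83% to 6.19% of all genes. In AT it gave 4 to 8, against 2.98% to 4.63%. The interaction had 0 to 2, against 1.19% to 2.82%, the 2 without replicate 3 of AT from SAT. With the replicate number as a block, 3 genes were called in AP (5.35% of all genes), 7 in AT (4.27%, Eln added, adjusted p = 0.0121) and 0 in the interaction (1.88%). No AP minus AT call changed with that block. Whether equal numbers mark the same animals is not given in the labels. Pairing was therefore not assumed. Deviations from the group means correlated above 0.1 in 3 of 18 same-numbered pairs of arrays (-0.28 to 0.16). They did so in 6 of 36 different-numbered pairs (-0.18 to 0.31). With 3 arrays per group these correlations cannot settle whether equal numbers mark the same animals.

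Of 1120 values under the alternatives other than that demand, 1077 kept their sign and side of the threshold, 11 lost and 16 gained a call, and 16 changed sign, none of them called. Emilin1 in VAT minus SAT in AP became 0.065 with quantile normalization, 0.15 scaled to housekeeping genes, 0.10 without AP from SAT replicate 3 and 0.048 without AP from VAT replicate 2 (-0.11 to 0.10 over all arrays left out). In AT, Mfap5 became -0.035 and -0.17 without replicates 1 and 2 of AT from SAT and -0.043 and -0.063 without replicates 2 and 3 of AT from VAT (-0.17 to 0.34), and Tnxb 0.14 without replicate 3 of AT from SAT (-0.36 to 0.14). In the interaction, Mfap4 became -0.005 without AP from SAT replicate 1 and -0.037 without AT from VAT replicate 1 (-0.037 to 0.35). Mfap5 became -0.22 without AT from SAT replicate 3 and -0.12 without AT from VAT replicate 1 (-0.22 to 0.29). Tnxb became -0.005, -0.31 and -0.08 without AP from VAT replicate 3, AT from SAT replicate 3 and AT from VAT replicate 1 (-0.31 to 0.19). For values moved by other settings than fewer arrays the cause was not tested.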
